A study of Schizosaccharomyces pombe
Saccharomyces cerevisiae with 16 samples.

Results

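The comparison described here set the loss of newly made RNA against the loss of RNA level after depletion of Med17 in budding yeast (Saccharomyces cerevisiae). Its members were the 8 libraries of the Med17 strain out of 16 libraries in the series, and the 6764 genes present in both deposited count tables. For each gene the log2 change of newly synthesized RNA (auxin minus DMSO) was taken, and the log2 change of total RNA was subtracted from it. This value is called the difference below: a negative difference means that new RNA fell further than the RNA level did. By its title the study concerns how Mediator subunits that hold the complex together differ in their need for transcription.

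The strain was of mating type alpha. OsTIR1, an F-box protein from rice, was expressed in it, and Med17 carried an IAA7 degron, through which auxin sends the protein to the proteasome. The genotype field of these samples names a MED14 tag, but their strain and source labels give Med17, which was followed. Its genotype further lists changes at ade2, his3, leu2, lys2, met15, trp1 and ura3, which DMSO and auxin cultures shared. Mid-log cultures in YPD, a rich medium, were kept for 30 min with auxin at 500 µM, or with DMSO, its solvent, and were then labelled for 6 min with 4-thiouracil (4tU) at 5 mM. The strain of the other degron, on Med14, was treated in the same way and serves here as a source of independent values. S. pombe cells were mixed in at a fixed cell ratio before extraction. RNA carrying 4tU was purified from the same extracts that gave the total RNA, so new and total RNA of 1 replicate number share a culture. There were 2 biological replicates per group, and a comparison of 2 single values against 2 cannot go below an exact p of 0.333.

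Mediator links activators bound upstream of genes to RNA polymerase II and its general factors, and Med17 lies in the head module that contacts the polymerase. The level of an RNA reflects both its synthesis and its decay, whereas a short pulse with 4tU, a uracil analogue, mostly samples synthesis. An mRNA with a long life therefore follows a loss of synthesis slowly, and a short-lived mRNA follows it quickly. Yeast mRNAs for ribosomal proteins and glycolytic enzymes are textbook cases of long life, and those of the G1 cyclins of short life.

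Raw totals of the Med17 libraries ran from 3829864 to 9995361 counts for new RNA and from 4936256 to 8841065 for total RNA. The markers of the labelled cell type were present: alpha-specific transcripts such as MF(ALPHA)1 had 632 to 27188 raw counts over the 16 libraries, and the pair of a-factor genes had at most 11. Other a-specific genes reached 65 (BAR1), 140 (YFL026W) and 332 (YKL209C) counts. The alpha-specific STE3 went as low as 132, so the ranges of the 2 kinds of marker overlapped. MET17 and the lysine gene YBR115C, deleted per the genotype, had at most 2 counts, as had HIS3, although the genotype also lists a HIS3 marker. The degron acts on the protein, so the mRNA of the tagged gene does not check the depletion. Reading frames inside the ribosomal DNA repeat varied widely between partner libraries. The first DMSO replicate of total RNA had 3017 raw counts of TAR1 against 58 in its partner. In new RNA the partners had 550 and 62 in DMSO, and 2357 and 548 with auxin.

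New RNA fell at nearly every gene, and total RNA fell less. Of 6057 genes that passed the filter on low counts, 5763 fell in new RNA (95.1%) and 102 rose (1.68%), by edgeR's quasi-likelihood test at an adjusted p under 0.05. In total RNA 4968 fell (82.0%) and 183 rose (3.02%). The median gene kept 15.3% of its new RNA and 39.0% of its total RNA, on the scale set by the authors' constants. A lower normalized count in such bulk samples cannot tell fewer cells from less RNA per cell. The difference was called below 0 at 5091 genes (84.1%) and above 0 at 17 (0.281%). Its median was -1.34, with quartiles at -1.86 and -0.95 and a median SE of 0.25 per gene.

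The position of 0 on this scale depends on the scaling. With TMM scaling, which assumes that most genes do not change, 1916 genes were lower and 1709 higher in new RNA (31.6% and 28.2%), and 1871 lower and 1471 higher in total RNA (30.9% and 24.3%). The difference then had a median of 0.09 and was called lower at 874 genes (14.4%) and higher at 946 (15.6%). All 874 were among the 5091. No list described below crossed the median of all genes under another scaling, so gene groups are set against that median, -1.34, and the TMM counts say which members lay apart from the bulk. Across 4726 nuclear protein-coding genes whose mean count reached 50 in both tables, the difference computed from replicate number 1 correlated with that from number 2 at Pearson's r = 0.858 (rho = 0.817). Over all 5822 tested it was r = 0.564 (rho = 0.665). These figures describe genes, which share libraries and are not independent.

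**Figure D1:**
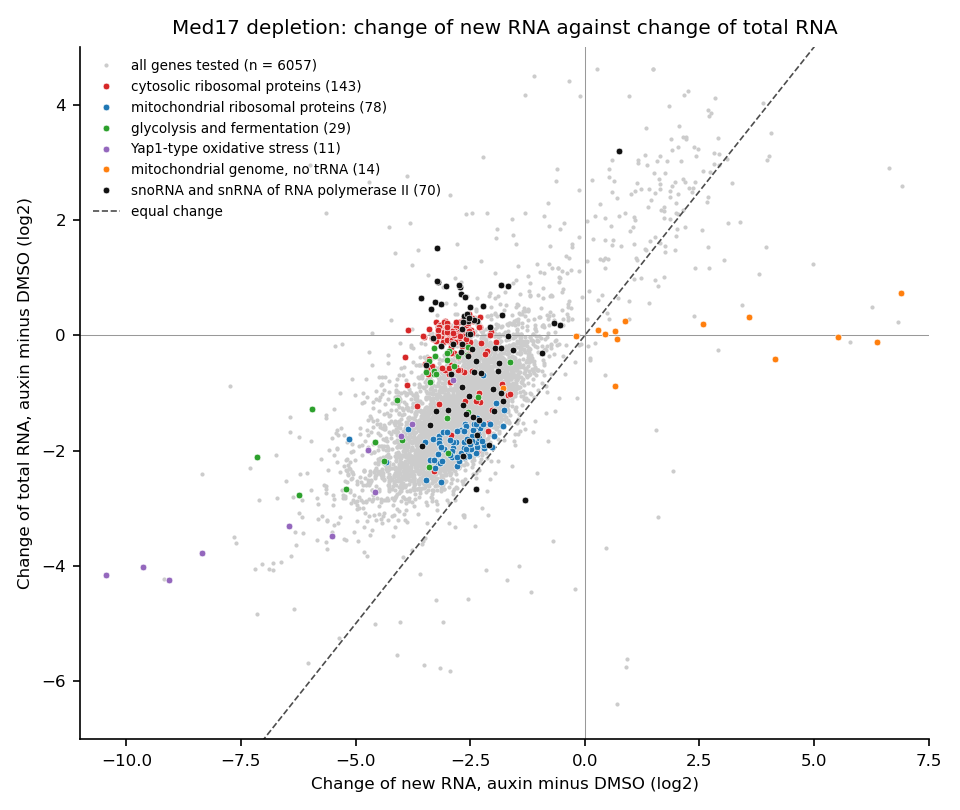
Change of total RNA against change of new RNA after Med17 depletion (log2, auxin minus DMSO, authors' constants), 1 point per gene tested, with 6 gene lists in colour; the dashed line marks equal change, and 8 genes lie outside the axes. Most genes lie above the line, the cytosolic ribosomal protein genes sit near 0 in total RNA with a median of -0.01, and the mitochondrial ribosomal protein genes sit nearer to the line.

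CDC19, the pyruvate kinase gene on chromosome I, 71786 to 73288, had 62170 and 56570 normalized counts of new RNA in DMSO, and 8731 and 6434 with auxin. Its total RNA was at 93110 and 84860 in DMSO and at 78170 and 69550 with auxin. The groups did not overlap in either kind of RNA, but the gap was wide in new RNA alone: new RNA fell by 2.97 on the log2 scale, and the total RNA change was -0.27 ± 0.15 (SE, adjusted p = 0.102). Such a lack of overlap was common. Both auxin values lay below both DMSO values at 5822 of 6057 genes in new RNA and at 5251 in total RNA.

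The other mRNAs listed as stable were also lower in the difference. It was -2.82 ± 0.22 for the phosphoglycerate kinase gene YCR012W, -2.56 ± 0.19 for actin (ACT1), -2.23 ± 0.24 for TDH3, the main glyceraldehyde-phosphate dehydrogenase, and -2.71 ± 0.23 for ENO2, an enolase. All 5 of this list were called lower (84.1% of all genes), and all 5 stayed lower with TMM (14.4% of all genes). Their median total RNA change was -0.34.

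CLN3, a G1 cyclin that starts the cell cycle, had 2686 and 2425 counts of new RNA in DMSO against 401.1 and 273.0 with auxin. Its total RNA went from 383.3 and 308.5 to 78.2 and 103.3, so that the groups stood apart in both. Total RNA fell by 1.92 on the log2 scale (adjusted p = 5.392e-08), and the difference was -1.002 ± 0.25. The other G1 cyclin genes, YMR199W and YPL256C, had differences of -0.64 ± 0.28 and -0.85 ± 0.27. HTB1, which encodes histone H2B, had -1.16 ± 0.23, and STE3, the receptor for a-factor in alpha cells, -1.45 ± 0.28. For these 5 tested mRNAs listed as unstable the median total RNA change was -1.71 and the median difference -1.002, which is 0.34 above that of all genes and within the quartiles of all genes. With TMM 1 of the 5 was higher and none lower, against 15.6% and 14.4% of all genes. Both a-factor genes of the list had too few counts for the test, as alpha cells lack them.

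**Figure D2:**
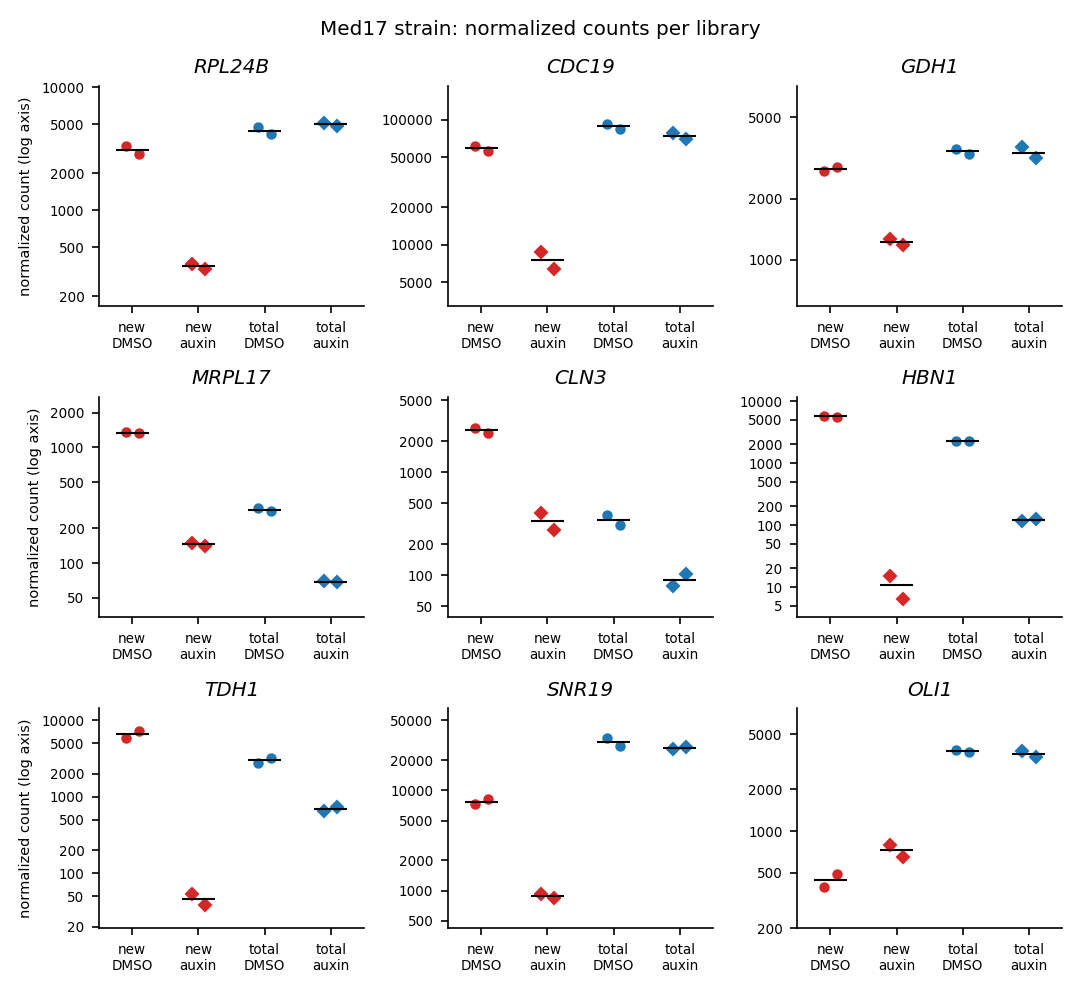
Normalized counts (log axis) of 9 genes in the 8 libraries of the Med17 strain; points are libraries, bars are means of 2, red is new RNA and blue is total RNA. RPL24B and GDH1 keep their total RNA while new RNA is lower, HBN1 and CLN3 are lower in both, and OLI1 is higher in new RNA with auxin.

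The list of cytosolic ribosomal protein genes, drawn from the files' annotation, had the lowest median difference of the lists described here. Of its 143 genes, 5 are described as mitochondrial ribosomal proteins and stand in that list too (MRPL7, YER050C, YML6, YMR158W and YMR188C), and 3 as assembly factors (RLP7, YKL009W and YLR009W). Without these 8 the median difference was -2.77, total RNA fell at 30 of 135, and TMM gave 121 lower and 6 higher. In the list as annotated, new RNA fell at all 143, against 95.1% of all genes. Its median was -2.85 (13.9% left), close to the median of all genes, -2.71. Total RNA had a median change of -0.01, which is 1.35 above that of all genes: it fell at 38 members, rose at 1, and was not called at 104, whereas over all genes 12.6% were lower in new RNA with total RNA not called. Under TMM that total RNA median becomes 1.22, so whether these mRNAs held level or gained depends on the scaling, while their place above other genes does not. The median difference was -2.76, and -1.415 relative to that of all genes. It was -2.61 from replicate number 1 and -2.97 from number 2. With TMM 121 of the 143 were lower and 10 higher, against 14.4% and 15.6% of all genes.

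RPL24B, a protein of the large subunit, on chromosome VII from 787312 to 787779, had 3322 and 2873 counts of new RNA in DMSO and 367.4 and 331.4 with auxin. Its total RNA was 4715 and 4119 in DMSO and 5097 and 4865 with auxin, slightly higher in both auxin libraries. The difference was -3.32 ± 0.18 (adjusted p = 3.752e-10). RPS6A of the small subunit (-3.19 ± 0.19), RPL34A (-3.53 ± 0.21) and RPL6A (-3.32 ± 0.20) were like it, each with a total RNA change between -0.01 and 0.15. RPL43A was the member whose total RNA rose, by 0.36 ± 0.13 (adjusted p = 0.01747). The difference did not pass the test at RPL15B (-0.34 ± 0.23, adjusted p = 0.1728) and RPS9A (-0.45 ± 0.21, adjusted p = 0.05784). Their total RNA fell by 2.02 and 1.66 on the log2 scale, and the 3 genes named last were chosen after their values were seen. Many of these genes have a near-identical copy, so the split of reads within such pairs is uncertain.

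Mitochondrial ribosomal protein genes, transcribed in the nucleus, lost both kinds of RNA. New RNA fell at all 78, with a median of -2.69, and total RNA fell at all 78, with a median of -1.88. Over all genes 95.1% and 82.0% fell. The median difference was -0.82, which is 0.52 above that of all genes. It was called lower at 63 of 78, a share near the 84.1% over all genes. With TMM none was lower and 43 were higher, against 14.4% and 15.6% of all genes. MRPL17, of the large subunit, went from 1362 and 1323 to 149.7 and 140.9 in new RNA, and from 298.7 and 279.5 to 70.7 and 68.0 in total RNA. Its difference was -1.15 ± 0.19, and those of MRPL22 (-1.14 ± 0.18) and the small-subunit gene YKL155C (-1.37 ± 0.17) were near it. YFR049W, which the files' annotation places in the list, is described there as a subunit of alpha-ketoglutarate dehydrogenase, and had -2.16 ± 0.28. These genes were named for the smallest p in the difference. Each lay below the quartiles of the list, -1.09 and -0.60, so they are not typical of it.

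Genes listed under ribosome biogenesis, mostly for processing ribosomal RNA and assembling subunits, lost less new RNA than other genes. By its annotation this list also holds genes of other kinds, such as TOR1, TOR2, RSP5, RPB5 and RPO26, which were not left out. The median in new RNA was -1.86 over 233 members, 0.86 above that of all genes, and 232 fell (99.6%, against 95.1% of all genes). Total RNA fell at 163 (70.0% against 82.0%) and rose at 5, with a median of -0.72. The difference had a median of -1.17, and 212 members were lower (91.0% against 84.1%). The 5 that rose in total RNA included RPA190, the largest subunit of RNA polymerase I, which rose by 0.44 ± 0.14 (adjusted p = 0.009088) while its new RNA fell by 1.24 on the log2 scale. URB1, YMR229C, YNL132W and YPL012W were the others, and these genes too were chosen after their values were seen.

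Glycolysis and fermentation genes lost much new RNA and less of their level. New RNA fell at all 29 tested members (95.1% of all genes), with a median of -3.29. Total RNA fell at 23 (79.3%, against 82.0% of all genes), with a median of -0.68. The difference was lower at all 29 (84.1% of all genes), with a median of -2.57. With TMM 21 were lower and none higher, against 14.4% and 15.6% of all genes. Minor isozymes were among the most negative of all genes. TDH1, a glyceraldehyde-phosphate dehydrogenase, went from 5866 and 7275 to 54.4 and 38.3 in new RNA, and from 2815 and 3202 to 660.8 and 730.2 in total RNA. Its difference was -5.04 ± 0.25 (adjusted p = 2.55e-10). ENO1, an enolase, went from 14330 and 17080 to 301.5 and 206.4 in new RNA and from 7608 and 8271 to 3118 and 3435 in total RNA. Its difference was -4.68 ± 0.23. Both were therefore lower in each kind of RNA, without overlap, as were most genes. The phosphofructokinase subunit gene YGR240C had -2.96 ± 0.18, and YER178W, a subunit of pyruvate dehydrogenase that the annotation puts here, -2.36 ± 0.16. Without the pyruvate dehydrogenase and NADH dehydrogenase genes of the list the median of the other 25 was -2.58. TDH1 and TDH3, and ENO1 and ENO2, are close paralogs whose reads may be partly shared.

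Genes of translation and folding lay on the same side. The list of translation factors, which by its annotation also holds the glutathione transferase gene YLL060C, had a median difference of -1.67 over 47 genes. All 47 were lower, against 84.1% of all genes, and by TMM 16 were lower and 5 higher (14.4% and 15.6% of all genes). CAM1, an elongation factor subunit, had -3.21 ± 0.15. EFB1, another subunit of that factor, had -2.71 ± 0.19. CLU1, an initiation factor subunit, had -2.88 ± 0.18, and the ribosomal translocase gene YDR385W had -2.81 ± 0.18 with a total RNA change of 0.08 ± 0.12. Heat shock chaperones had a median difference of -1.84. All 20 were lower, against 84.1% of all genes, and by TMM 9 were lower and 1 higher. HSC82, an Hsp90, had -2.05 ± 0.18, and SSE1, an exchange factor for Hsp70, -2.06 ± 0.17. SSA3, a stress-induced Hsp70, kept its total RNA at 205.2 and 239.3 against 219.4 and 259.3 in DMSO, while its new RNA went from 1226 and 1352 to 252.8 and 270.1. Another chaperone gene of the list, YBR169C, differed from SSA3 in that its total RNA fell by 2.20 on the log2 scale. Of 8 general stress genes, 7 were lower in the difference (87.5% against 84.1% of all genes), and all 8 fell in both kinds of RNA (95.1% and 82.0% of all genes). TPS1 and TPS2, which make trehalose, had -2.18 ± 0.21 and -2.17 ± 0.18, ALD4, a mitochondrial aldehyde dehydrogenase, had -2.44 ± 0.23, and PGM2, a phosphoglucomutase, had -2.25 ± 0.27.

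**Figure D3:**
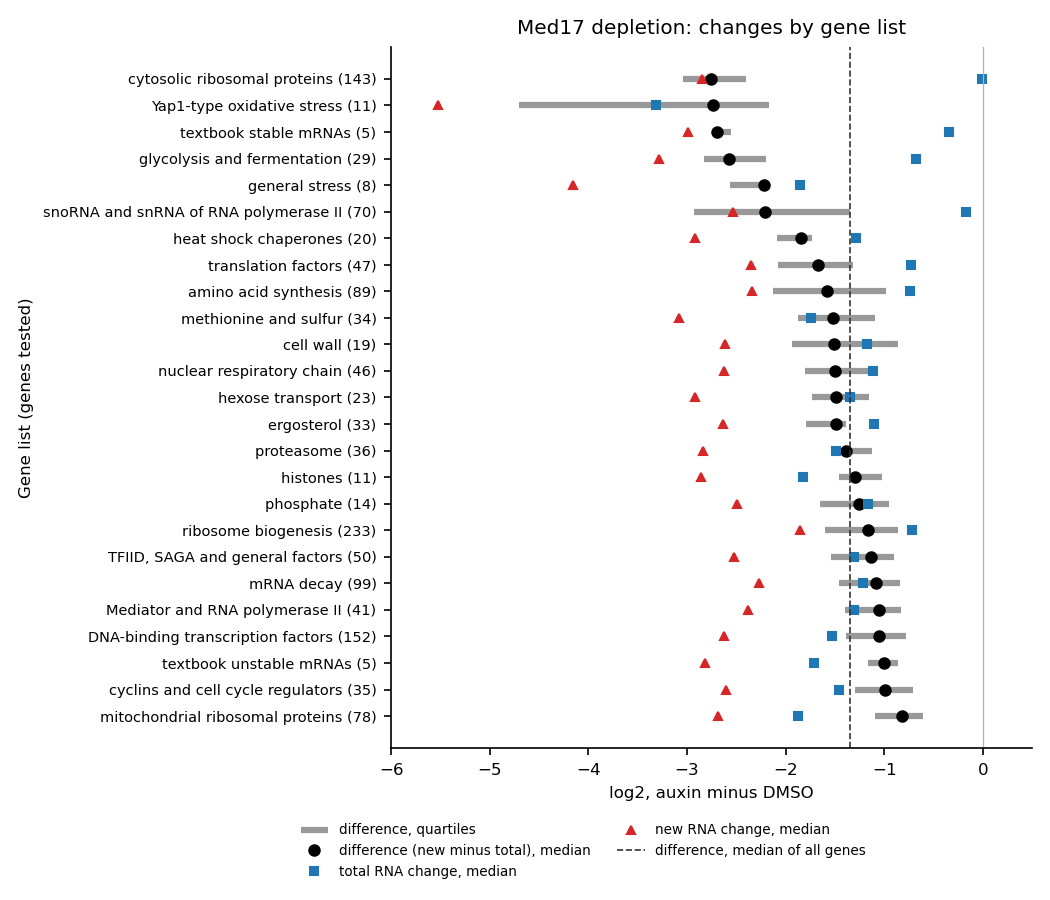
Median change of new RNA (triangles), of total RNA (squares) and median difference (circles, with quartile bars) for 25 gene lists, log2, auxin minus DMSO; the number of genes tested is in brackets and the dashed line is the median difference of all genes, -1.34. New RNA medians reach from -5.52 (Yap1-type genes) to -1.86 (ribosome biogenesis), and total RNA medians from -3.31 (Yap1-type genes) to -0.01 (cytosolic ribosomal proteins).

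The most negative differences were led by redox and detoxification genes of the type driven by the oxidative stress factor Yap1. All 11 members of that list fell in both kinds of RNA, against 95.1% and 82.0% of all genes. Medians were -5.52 in new and -3.31 in total RNA, and the median difference was -2.74. With TMM 8 were lower, against 14.4% of all genes. OYE3, an NADPH oxidoreductase on chromosome XVI from 226169 to 227371, had 12580 and 13200 counts of new RNA in DMSO and 14.3 and 4.7 with auxin. Its total RNA went from 2367 and 2959 to 128.6 and 172.1. The difference was -6.30 ± 0.92 (adjusted p = 8.941e-06), and the SE reflects the few reads left in new RNA. The nitroreductase-like gene HBN1 on chromosome III from 73405 to 73986 went from 5839 and 5505 to 15.0 and 6.5 in new RNA and from 2297 and 2314 to 117.3 and 125.4 in total RNA. Its difference was -4.82 ± 0.65, and its neighbour FRM2 had -5.62 ± 0.84.

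ECM4, a glutathione transferase, had -4.59 ± 0.49, and GPX2, a glutathione peroxidase, -3.13 ± 0.34. TRX2, a thioredoxin, and AHP1, a peroxiredoxin, had more total RNA left and differences of -2.74 ± 0.25 and -2.27 ± 0.25. Outside the list, YKL071W, of unknown function, had -4.94 ± 0.77, the DNA damage-responsive gene DDR48 -4.75 ± 0.39, and the glycogen phosphorylase gene YPR160W -4.33 ± 0.37. The small nucleolar RNA snR31, described below, was also among the 10 most negative.

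Ranking by total RNA alone gave several of these genes again. The 10 genes with the most negative total RNA change among those called in both tables fell between 3.94 and 4.25 on the log2 scale. They were HBN1, YKL071W, OYE3 and FRM2, the glutathione transferase gene YLL060C, the sulfiredoxin gene YKL086W, the quinone oxidoreductase family gene YLR460C, the membrane transporter gene YBR008C, YCR102C, and the aryl-alcohol dehydrogenase gene YDL243C. YBR008C, for example, went from 27040 and 24750 to 260.0 and 134.4 in new RNA and from 5064 and 4620 to 285.7 and 334.4 in total RNA. The groups stood far apart in both.

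The difference was not called at 949 genes. Where the mean count reached 50 in both tables, 5 called genes had a positive difference, 3 of them in the ribosomal DNA repeat and 2 in the mitochondrial genome. The next 5 were the least negative of the called genes. MAS1, a subunit of the mitochondrial processing protease, went from 3194 and 2999 to 691.9 and 597.3 in new RNA, and from 617.2 and 645.9 to 188.7 and 164.7 in total RNA. Its difference was -0.43 ± 0.18 (adjusted p = 0.03926). YGL107C, a mitochondrial protein needed for respiratory growth, had -0.44 ± 0.18, the nucleotidase gene SDT1 -0.46 ± 0.19, YGR147C, of unknown function, -0.48 ± 0.19, and PDE2, a cyclic AMP phosphodiesterase, -0.49 ± 0.22. With TMM all 5 were called higher.

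Genes of the transcription and cell cycle machinery lay on the same side as these, though closer to the bulk. The median difference was -1.06 for 41 genes of Mediator and RNA polymerase II, with 33 lower (80.5%, near the 84.1% over all genes), and by TMM 3 lower and 15 higher. It was -1.13 for 50 genes of TFIID, SAGA and general factors (2 and 14 by TMM), -1.05 for 152 DNA-binding transcription factors (2 and 46), -0.99 for 35 cyclins and cell cycle regulators (2 and 13), and -1.08 for 99 mRNA decay genes (12 and 30). Over all genes 14.4% were lower and 15.6% higher by TMM. SRB4, which encodes Med17 itself, went from 2311 and 2087 to 348.8 and 317.2 in new RNA and from 354.2 and 333.4 to 137.6 and 96.7 in total RNA, a difference of -1.18 ± 0.22. RGR1, which encodes Med14, had -0.88 ± 0.18. The exceptions, chosen after their values were seen, were RPO21, the largest subunit of RNA polymerase II, whose total RNA rose by 0.29 ± 0.13 (adjusted p = 0.04328) as its new RNA fell by 2.43 on the log2 scale, and HRP1, a subunit of a cleavage factor. The total RNA of HRP1 rose by 2.28 ± 0.18 (adjusted p = 5.4e-09), while its new RNA change was 0.34 ± 0.17 (adjusted p = 0.06161).

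The remaining lists of nuclear protein-coding genes had medians near that of all genes. Median differences were -1.58 for amino acid synthesis (89 genes), -1.52 for methionine and sulfur (34), -1.51 for cell wall (19), -1.50 for the nuclear respiratory chain (46), -1.49 for hexose transport (23), -1.48 for ergosterol (33), -1.39 for the proteasome (36), -1.29 for histones (11) and -1.26 for phosphate (14). By TMM 30 of the 89 amino acid synthesis genes were lower and 21 higher, against 14.4% and 15.6% of all genes. Members of this list thus lay on both sides of the bulk. Total RNA rose at 4 of its members, chosen after their values were seen: the leucine synthesis gene YGL009C by 0.99 ± 0.16, and YDR127W, YER081W and YJR016C by 0.34, 0.61 and 0.49. All 36 genes of the proteasome list, which also holds the cadmium transporter gene PCA1, fell in both kinds of RNA, against 95.1% and 82.0% of all genes.

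Small nucleolar and spliceosomal RNAs made by RNA polymerase II lost new RNA with less change in level. New RNA fell at 67 of 70 (95.7%, against 95.1% of all genes), with a median of -2.54. Total RNA had a median of -0.17, with 21 lower (30.0% against 82.0%) and 3 higher. New RNA fell with total RNA not called at 44, against 12.6% of all genes. The median difference was -2.21, and the values from replicate numbers 1 and 2 lay apart, at -1.53 and -2.51. The U1 spliceosomal RNA, SNR19, went from 7303 and 8118 to 923.9 and 839.7 in new RNA and stood at 26170 and 27410 in total RNA against 33240 and 27780. Its difference was -2.94 ± 0.27. The U2 RNA LSR1 had -1.92 ± 0.22, snR86 -2.40 ± 0.28 and SNR83 -2.89 ± 0.36. For snR31 the difference of -4.73 ± 0.85 rested in part on 1 library, since its total RNA was 783.8 and 998.1 in DMSO and 840.5 and 4252 with auxin. Without the second auxin replicate of total RNA it was -3.13. The neighbouring snR5 was also high in that library, at 2281 against 849.5 in its partner and 838.0 and 888.4 in DMSO. It and SNR72, which had few counts, were the other members whose total RNA rose, named after their values were seen.

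RNAs that RNA polymerase II does not make behaved otherwise. SCR1, which RNA polymerase III transcribes for the signal recognition particle, had 55380 and 55490 counts of new RNA in DMSO and 59810 and 40830 with auxin. Its total RNA was 342800 and 324100 against 324600 and 341400, and the groups overlapped in both. The difference was -0.14 ± 0.35 (adjusted p = 0.7123), and that of RPR1, the RNA of nuclear RNase P, 0.25 ± 0.38 (adjusted p = 0.5438). With TMM both were called higher. Nuclear tRNA genes had low and uncertain counts, as near-identical copies share reads. Of 123 tested, 74 rose in new and 90 in total RNA, against 1.68% and 3.02% of all genes, with medians of 1.75 and 2.38. Their median difference was -0.68, with 5 lower and none higher, against 84.1% and 0.281% of all genes. It was 0.10 from replicate number 1 and -0.90 from number 2. Of 66 nuclear tRNA genes that rose in both kinds of RNA, 61 had a mean total RNA count under 50.

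Of the 14 tested mitochondrial genes other than tRNAs, 9 rose in new RNA, 1 fell (21S_RRNA), and none was called in total RNA. Over all genes 1.68% rose and 95.1% fell in new RNA. The difference was called higher at 6 of the 14, against 0.281% of all genes. With TMM 11 were higher, against 15.6% of all genes. OLI1, subunit c of the ATP synthase, went from 398.8 and 488.0 to 799.3 and 651.0 in new RNA, and was at 3849 and 3698 and then 3800 and 3405 in total RNA. Its difference of 0.77 ± 0.32 (adjusted p = 0.03461) no longer passed when any 1 of 5 of the 8 libraries was dropped, with values of 0.62 to 0.80. The maturase-like frame Q0255 went from 16.4 and 25.3 to 121.8 and 130.9, with a difference of 2.37 ± 0.39. ATP8 had 0 raw counts of new RNA in both DMSO libraries and 22 and 7 with auxin, and the dubious frame Q0182 had 0 and 1 against 78 and 52.

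Frames inside the ribosomal DNA repeat had the highest fitted differences, and these turned on single libraries. TAR1, on chromosome XII from 454696 to 455070, had 550, 62, 2357 and 548 raw counts of new RNA (DMSO, DMSO, auxin, auxin) and 3017, 58, 86 and 9 of total RNA. The fitted difference was 6.65 ± 2.20 (adjusted p = 0.009973). Without the first DMSO replicate of total RNA it was 0.98 (adjusted p = 0.6705). YLR154W-B (6.54) and YLR154W-F (7.10) went to 0.41 and -0.07. YLR154W-E went from 4.74 to 1.97 (adjusted p = 0.2372). Without the first auxin replicate of new RNA the adjusted p of these 4 frames lay between 0.06452 and 0.07791, with TAR1 at 5.02. Without the second DMSO replicate of new RNA YLR154W-E had an adjusted p of 0.05004, and the limma voom fit called none of the 4. The share of reads from ribosomal RNA left after its removal was not measured here.

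The ratio of new to total RNA without auxin shares no library with the difference when it is taken from the DMSO libraries of the Med14 strain. Turnover is 1 of the things that can set this ratio, and what sets it was not tested. The 5822 nuclear protein-coding genes were ranked by it and split into 5 bins of equal size. From the lowest to the highest bin the median difference in the Med17 strain was -2.13, -1.47, -1.26, -1.15 and -1.07. New RNA medians ran from -2.92 to -2.52, whereas the total RNA median was -0.86 in the lowest bin and between -1.43 and -1.53 in the others. By TMM 560 genes were lower and 22 higher in the lowest bin, and 22 lower and 295 higher in the highest. The lowest bin held 131 of the 143 cytosolic ribosomal protein genes, 24 of 29 glycolytic genes and 9 of 11 Yap1-type genes. Levels in DMSO were not the same in both strains for the last list: OYE3 had 91.6 and 70.8 counts of new RNA in the Med14 strain against 12580 and 13200 in the Med17 strain, and AHP1 34280 and 30640 against 44700 and 41220. It held 4 of 152 transcription factors and no cyclin or cell cycle gene of 35. Without the ribosomal protein genes the lowest bin still had a median difference of -2.05. The difference also varied with RNA level. In 5 bins by total RNA per kb in the same DMSO cultures its medians were -1.55, -1.23, -1.16, -1.24 and -1.76, from lowest to highest. The highest of these bins had a total RNA median of -0.88, with 499 genes lower and 142 higher by TMM.

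Across these genes the ratio correlated with the difference at r = 0.431 (rho = 0.459), and at r = 0.664 (rho = 0.553) in the 4726 whose mean count reached 50. With the total RNA change it correlated at r = -0.248, and with the new RNA change at r = 0.13. No library is shared between the axes, but both come from the same labelling and purification, and genes are not independent. Of 755 nuclear protein-coding genes that fell in new RNA and were not called lower in total RNA, 316 (41.9%) were in the lowest bin. That bin held 1165 of the 5822 genes, and 105 of the 755 were in the cytosolic ribosomal protein list. Total RNA was not called either way at 718 of the 755, and 332 of these had a mean total RNA count under 50. A lack of a call there does not show that the level was held.

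**Figure D4:**
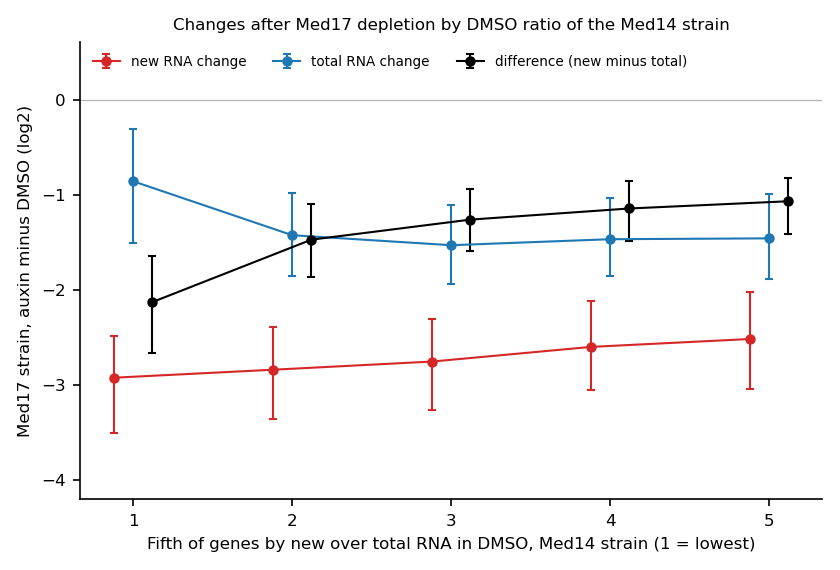
Median change of new RNA, of total RNA and median difference (log2) in the Med17 strain, for 5 equal bins of 5822 nuclear protein-coding genes ranked by new over total RNA in DMSO libraries of the Med14 strain; bars are quartiles over genes. The difference goes from -2.13 to -1.07, and the lowest bin has the smallest loss of total RNA.

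In the Med14 strain new RNA fell at 5711 genes (94.3%) and total RNA at 4183 (69.1%). The median difference there was -1.05, with 4820 genes called lower (79.6%) and 1 higher (0.0165%). Median differences in the Med14 and Med17 strains were -2.87 and -2.76 for cytosolic ribosomal proteins, -0.83 and -0.82 for mitochondrial ones, and -2.43 and -2.57 for glycolysis. They were -2.16 and -2.74 for Yap1-type genes, -1.84 and -2.22 for general stress, and -0.97 and -1.52 for methionine and sulfur. The test of the strain difference called 50 genes lower in Med17 (0.825%) and 4 higher (0.066%). With new and total RNA paired by culture it called 338 and 39. With TMM it called 0 lower (0.0%) and 1 higher (0.0165%). The count of genes lower also turned on single libraries. It was 188 without the first DMSO replicate of new RNA in the Med14 strain, and 63 without the first auxin replicate of total RNA there. It was between 0 and 23 without any other 1 of the 16. It was 0 without the second DMSO or second auxin replicate of new RNA in the Med17 strain, without either auxin replicate of its total RNA, and without the second auxin replicate of total RNA in the Med14 strain.

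The most negative were YER002W, a pre-ribosomal particle protein (-2.80 ± 0.53), YNL136W, a subunit of a histone acetyltransferase (-2.80 ± 0.62), the peptide N-glycanase gene YPL096W (-2.70 ± 0.56), the mitochondrial outer membrane protein gene YAL008W (-2.40 ± 0.52) and the mannosidase gene YJR131W (-2.20 ± 0.37). In YJR131W the difference was -2.64 in the Med17 and -0.44 in the Med14 strain. ENO1 and TDH1 were also among the 50, with strain differences of -1.81 ± 0.31 and -1.69 ± 0.33. GDH1, which makes glutamate, was higher in the Med17 strain by 1.10 ± 0.22 (adjusted p = 0.03013), and YAL044C, of the glycine decarboxylase, by 1.07 ± 0.24. GDH1 had new RNA of 2735 and 2865 in DMSO and 1267 and 1185 with auxin in the Med17 strain, and of 5943 and 5558 and then 1070 and 1151 in the Med14 strain.

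**Figure D5:**
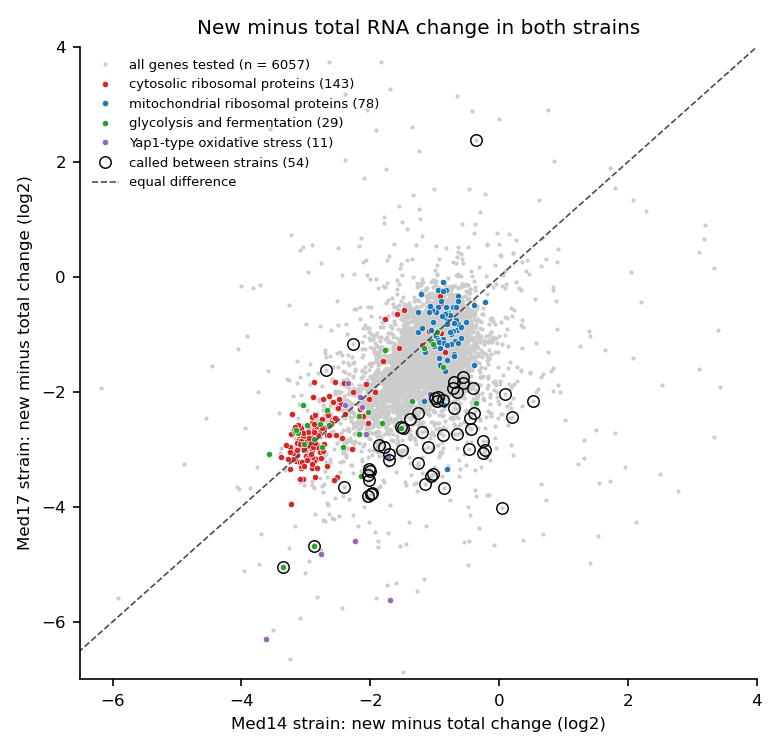
Difference (new minus total RNA change, log2) in the Med17 strain against the Med14 strain, 1 point per gene tested; circles mark the 54 genes called between the strains, and 24 genes lie outside the axes. The lists of cytosolic and mitochondrial ribosomal protein genes, which share 5 genes, have medians of -2.76 and -0.82 in the Med17 strain and of -2.87 and -0.83 in the Med14 strain.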

How the data were processed

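RNA of 16 libraries was measured, 8 of newly synthesized and 8 of total RNA, with a stranded kit after ribosomal RNA removal, per the labels' protocols. The submitters' processing notes name bcl2fastq 2.17.1.14 and sacCer3. Neither the aligner nor the counting program, its strand setting or its annotation is given in the sources used here, so overlapping and antisense genes cannot be told apart. The authors deposited raw counts per gene, per the file headers, for 6859 genes in new RNA and 6805 in total RNA. Their normalized values are a signal: each deposited raw count multiplied by 1 constant per library. How these constants were derived is unknown here. Log2 fold changes and p-values that the authors deposited for numbered groups were not used. Samples were grouped by their source label.

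Raw counts were fitted with edgeR 4.0.16 in R 4.3.3 (quasi-likelihood F test, two-sided, SE from the F statistic), 1 fit over 8 groups of 2 with the authors' constants as scaling, after filterByExpr, with Benjamini-Hochberg adjustment over all 6057 genes and a threshold of 0.05. The test was also run on simulated data, with new RNA changes of 0.5, 1 and 2 (log2) put into 67, 67 and 66 of 6057 genes. The difference was called at 0%, 55.2% and 81.8% of these, and 5.21% of the called genes were false. In the measured data most genes were called, so these shares need not carry over. DESeq2 1.42.0, limma 3.58.1, other scalings and filters, blocks and left-out libraries were alternatives. Named genes were the 10 most negative and the 10 most positive (or least negative) called differences with a mean count of at least 50 in each table and 1 direction in both replicate numbers, the 10 most negative total RNA changes called in both tables, the 5 most negative and up to 5 most positive strain differences, fixed reference genes, and up to 4 members per list with the smallest p. Members, rules and lists were chosen with earlier results of these data known. The files name 2217 of 6764 genes, so lists were completed by the files' own annotation after it was seen; the subsets of genes behind correlations were also chosen after seeing the data. Pairing of new and total RNA by culture comes from the design: deviations of same-numbered new and total libraries correlated at 0.594 (Med17 DMSO), 0.0749 (Med17 auxin), 0.492 (Med14 DMSO) and 0.18 (Med14 auxin) over 5204 genes. Intervals cover the spread of 2 cultures only. No gene or RNA sequence is shown, as no S. cerevisiae reference was used here.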

Additional observations from a re-analysis of the deposited data

Results flagged for a closer look

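The change of new minus total RNA differed between the Med17 and Med14 strains, by the interaction test of edgeR, at 50 genes lower (0.825%) and 4 genes higher (0.066%) in Med17. These counts depended on the scaling, and with TMM they were 0 and 1. On the authors' scale the strain difference had a median of -0.231 over all genes. The named values were -2.80 for YER002W, -2.80 for YNL136W, -2.70 for YPL096W, -2.40 for YAL008W and -2.20 for YJR131W on the lower side. On the higher side they were 2.73 for Q0255, 1.10 for GDH1 and 1.07 for YAL044C, and the fourth gene was Q0182.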

How the results depend on the processing

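With TMM, median-of-ratios and total-count scaling within each table, new RNA gave 1916, 1794 and 2065 genes lower and 1709, 1810 and 1455 higher. Total RNA gave 1871 and 1426 lower under the first and second, and 1471, 1697 and 535 higher. The difference gave 874, 1005 and 328 lower and 946, 679 and 3178 higher, with medians of 0.0928, 0.00699 and 0.716, and the strain difference 0, 0 and 6 lower and 1, 1 and 22 higher, with medians of 0.0262, 0.00872 and 0.0859. These scalings add nearly the same amount to every gene, so the printed list medians shift with them, while no list median crossed that of all genes. The difference changed sign under TMM at MAS1 (1.00), YGL107C (0.986), SDT1 (0.973), YGR147C (0.954), PDE2 (0.941), CLN3 (0.413), HTB1 (0.262), YMR199W (0.786), YPL256C (0.575), SRB4 (0.257), RGR1 (0.546), SCR1 (1.27), YKL155C (0.0616), MRPL17 (0.280) and MRPL22 (0.283). Under median-of-ratios these were 0.918, 0.900, 0.887, 0.868, 0.856, 0.328, 0.178, 0.701, 0.491, 0.170, 0.460 and 1.19, with 0.194 for MRPL17 and 0.198 for MRPL22. Under total counts they were 1.63, 1.61, 1.60, 1.58, 1.57, 1.04, 0.891, 1.41, 1.20, 0.885, 1.17, 1.90, 0.691, 0.908 and 0.913, with 0.609 for STE3, 0.0170 for HSC82 and 0.137 for LSR1.

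A mean count of at least 50 in each table left 11 genes higher in new RNA, 40 in total RNA and 5 in the difference, and put the phosphate list 0.144 below the median of all genes (-0.144). The limma voom fit gave 9 higher in the difference, and 17 lower and 1 higher between strains; DESeq2 gave 102 and 8. Leaving out 1 library at a time gave 59 to 105 genes higher in new RNA, 97 to 165 in total RNA, 4 to 18 in the difference, and 0 to 188 lower and 0 to 5 higher between strains; genes lower ranged from 4647 to 5148 in the difference. Ranges over these fits that crossed 0 were -0.0906 to 0.0256 for the proteasome list, -0.269 to 0.00932 for hexose transport and -0.0275 to 0.166 for histones, each against the median of all genes, and -0.122 to 0.538 for RPR1, -0.439 to 0.112 for SCR1 and -0.0703 to 10.25 for YLR154W-F. With a replicate block within kind and strain the difference gave 5184 lower and 16 higher, and the strain difference 225 and 19; blocked by culture, it gave 5181 and 20, and the strain difference 338 and 39. The blocks changed no other count by over 1.5 times. Leaving out list members of another kind, chosen after seeing the data, put the lists at -1.43 (cytosolic ribosomal proteins), 0.528 (mitochondrial), -1.24 (glycolysis), -0.0557 (proteasome) and -0.311 (translation factors) against the median of all genes. Each group has 2 cultures, and 672 of the 949 genes whose difference was not called had a mean total RNA count under 50. The cause of the moves was not tested.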
